A study of Macaca mulatta with 9 samples.

Results

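The T cell receptor complex and its coreceptors were followed through 10 genes: CD3D, CD3E, CD3G, CD247, CD4, CD8A, CD8B, CD2, LCK and ZAP70. They were chosen by name, and all 10 were found among the 767 probes of the table. Total RNA came from formalin-fixed, paraffin-embedded kidney biopsies, catalogued as rhesus macaque and male, of kidneys from genetically modified donor pigs. The assay was nCounter, which counts single hybridised probes without amplification, with the Human Organ Transplant Panel. There were 3 groups of 3 libraries: 1KO.1TG early R (donor line 1KO.1TG, early), 3KO.7TG late R (donor line 3KO.7TG, late) and 3KO.7TG early bx (donor line 3KO.7TG, early). Neither R nor bx is explained in the labels, which also leave the altered pig genes, ages and days after grafting unnamed. The group 1KO.1TG early R differs from 3KO.7TG early bx in donor line and in R or bx. It differs from 3KO.7TG late R in donor line and in early or late. Between 3KO.7TG late R and 3KO.7TG early bx, early or late changes together with R or bx. Within each comparison these parts of the labels cannot be told apart. Since nothing ties each library to an animal of its own, p-values cover only the spread between libraries, which may be technical.

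T cells recognise antigen through a receptor whose variable chains cannot signal alone. The CD3 delta, epsilon and gamma chains (CD3D, CD3E, CD3G) and the zeta chain (CD247) carry the signalling motifs. CD4 binds MHC class II and CD8 binds MHC class I, and each brings the kinase LCK to the receptor. LCK phosphorylates the CD3 and zeta chains, and ZAP70 docks there and passes the signal on. In a kidney graft these genes are used to follow T cells that enter the tissue, the cells behind T cell-mediated rejection. Several of them are not confined to T cells: in humans CD4 is also found on monocytes and macrophages, and CD2, CD247, LCK and ZAP70 also in natural killer cells.

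The third 1KO.1TG early R library (replicate 3) is called low-yield here, as it held 21725 counts, against 657340 to 1620151 in the other 8. In it 8 of the 10 genes lay at or below its highest viral probe (13 counts), the exceptions being CD3E with 17 and CD247 with 15 counts. Viral probes served as a measure of background, their highest count being 7 to 17 in single libraries. Results are therefore given with and without the low-yield library. Levels are scaled counts (CPM), computed with library sizes adjusted by trimmed means. A background count weighs more in the low-yield library, whose scaled size was 58880, so its CPM of low probes lie high. The probes were designed against human transcripts, and whether a signal came from macaque or pig RNA is not known. In such bulk tissue, fewer T cells and less RNA per T cell cannot be told apart.

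The tissue label was checked against 9 measured kidney genes. UMOD, the uromodulin gene of the thick ascending limb, gave 815 to 31665 counts in the other 8 libraries and 452 in the low-yield one.

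None of the 10 genes differed between groups beyond the spread between libraries. In 1KO.1TG early R versus 3KO.7TG early bx 0 of 10 passed (limma, adjusted p of 0.594 to 0.990), where 0.391% of all probes did. In 3KO.7TG late R versus 3KO.7TG early bx 0 of 10 passed (limma adjusted p of 0.990 for each), where 0% of all probes did. In 1KO.1TG early R versus 3KO.7TG late R 0 of 10 passed (limma adjusted p of 0.852 to 0.988), where 0.391% did. At an unadjusted p under 0.05 there were also 0 of 10 in each comparison, while 13.2%, 1.69% and 6.65% of all probes reached it. Without the low-yield library still 0 of 10 passed in each comparison (limma), where 1.83%, 0% and 0.522% of all probes did. Only CD8B, in 3KO.7TG late R versus 3KO.7TG early bx, then reached an unadjusted p under 0.05 (limma). Of all probes 20.1%, 3.52% and 8.87% reached it, in the same order of comparisons.

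**Figure D1:**
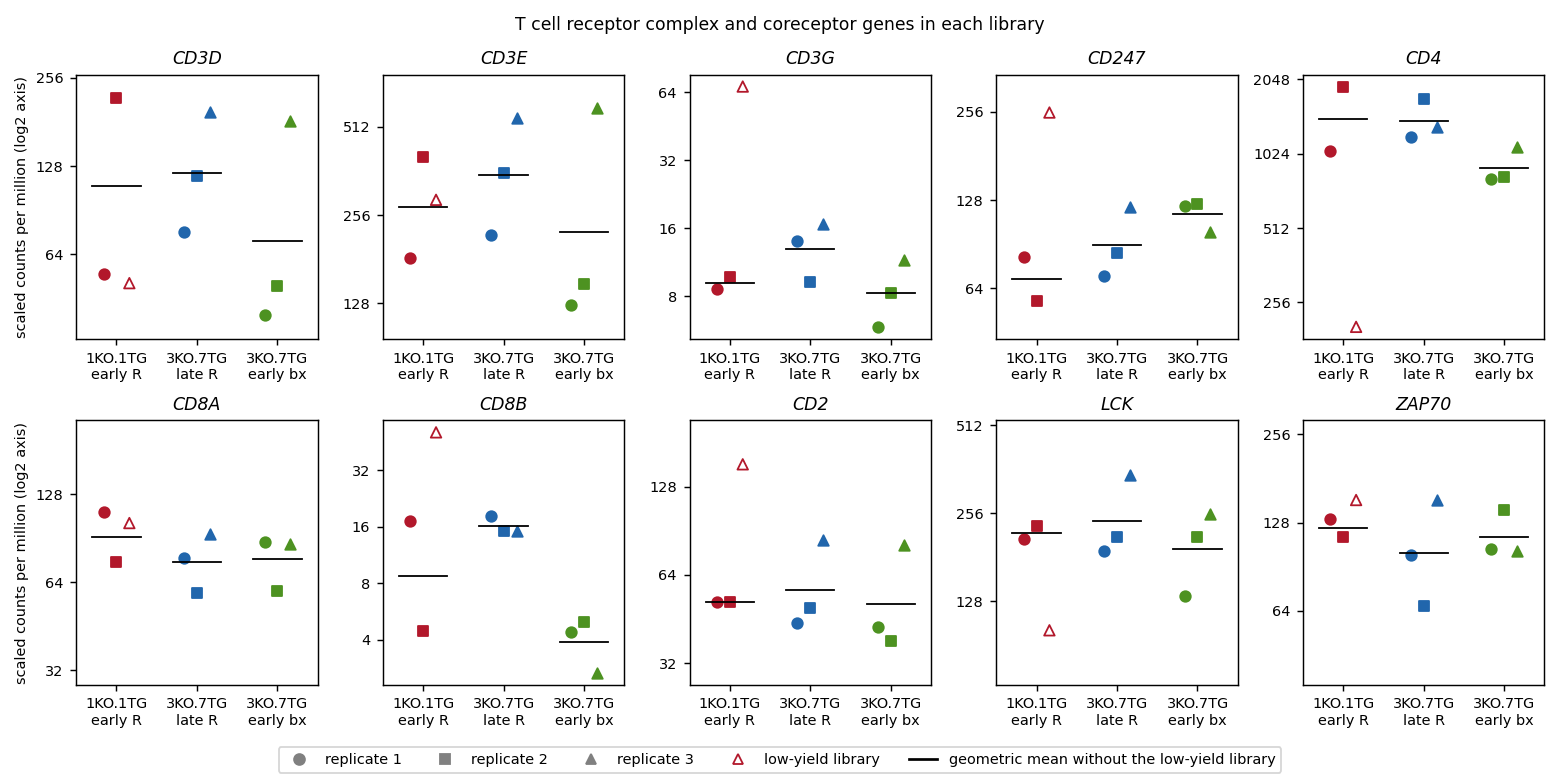
Each panel plots 1 gene, with the 3 groups on the x axis and scaled counts (CPM) on a log2 y axis whose range differs between panels. Symbols are replicates, the open triangle is the low-yield library, and bars are geometric means without it. CD3D and CD3E spread more than 4-fold between libraries, and CD8A less than 2-fold.

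The intervals set how large a difference could have gone unseen. All 30 fitted differences had 95% intervals that held 0. The narrowest interval spanned 1.83 on the log2 scale and the widest 4.52. A single one, CD8A in 3KO.7TG late R versus 3KO.7TG early bx, lay wholly between −1 and 1. Differences of 2-fold were thus within the intervals of nearly every gene, and the genes are not shown to be alike between groups.

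**Figure D2:**
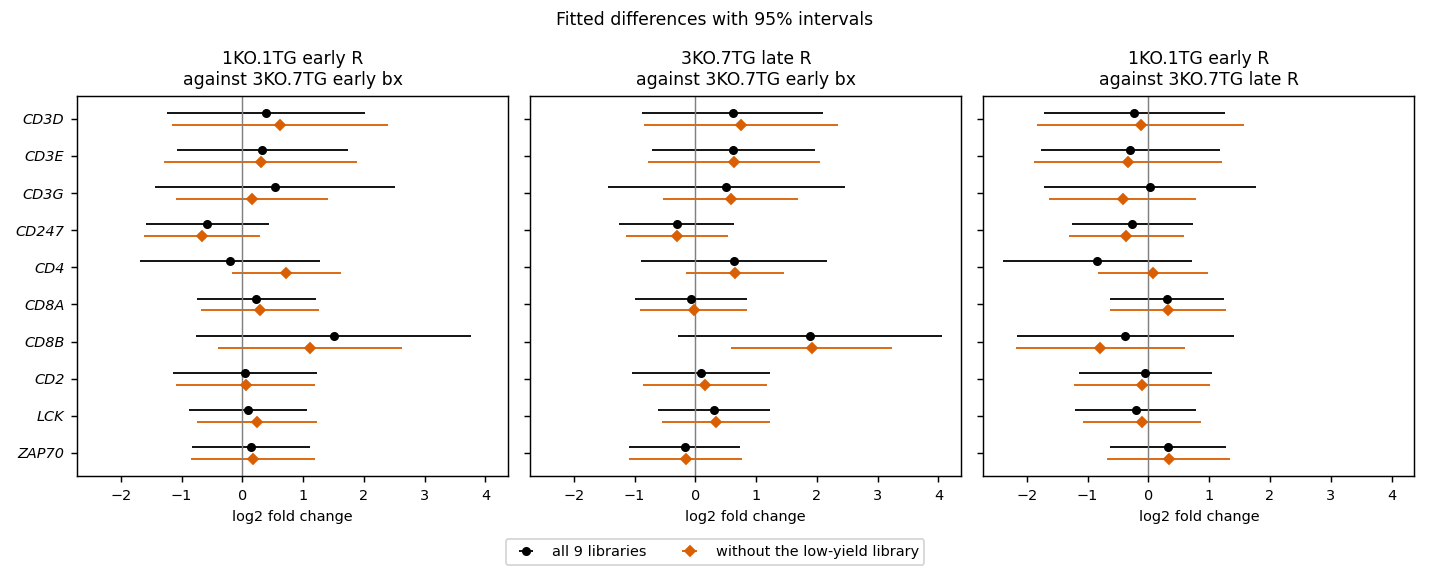
Fitted log2 fold changes of the 10 genes with 95% intervals in the 3 comparisons, the group named first over the second, from all 9 libraries (black) and without the low-yield library (orange). Every black interval crosses 0, and among the orange ones the interval of CD8B in 3KO.7TG late R versus 3KO.7TG early bx does not.

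CD3E and CD3D, the epsilon and delta chains, divided the libraries within every group. CD3E gave 183, 403 and 289 CPM in the 1KO.1TG early R libraries, the last being the low-yield library, then 219, 358 and 549 CPM in the 3KO.7TG late R libraries and 126, 149 and 593 CPM in the 3KO.7TG early bx libraries. The highest library, replicate 3 of 3KO.7TG early bx, thus stood in the group that also held the 2 lowest. CD3D gave 54.7, 218 and 51.0 CPM in the 1KO.1TG early R libraries, 76.2, 118 and 196 CPM in the 3KO.7TG late R libraries and 39.6, 49.8 and 182 CPM in the 3KO.7TG early bx libraries. The 51.0 CPM rest on 3 counts in the low-yield library, below its highest viral probe. The groups overlapped for both genes in all 3 comparisons, and the same 4 libraries were highest for each: replicate 2 of 1KO.1TG early R, replicates 2 and 3 of 3KO.7TG late R and replicate 3 of 3KO.7TG early bx.

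By group mean CD3E was highest in the 3KO.7TG late R libraries (375 ± 166 CPM, SD, n = 3), followed by 1KO.1TG early R (292 ± 110 CPM) and 3KO.7TG early bx (289 ± 263 CPM). Neighbours in this order did not differ beyond their spread. The fitted log2 fold change of CD3E was 0.33 ± 0.65 (SE) in 1KO.1TG early R versus 3KO.7TG early bx (limma adjusted p = 0.922), 0.63 ± 0.62 in 3KO.7TG late R versus 3KO.7TG early bx (limma adjusted p = 0.990) and −0.30 ± 0.68 in 1KO.1TG early R versus 3KO.7TG late R (limma adjusted p = 0.940). CD3D had 0.39 ± 0.75, 0.62 ± 0.69 and −0.23 ± 0.69 in the same order. These values rested on single libraries: without replicate 3 of 3KO.7TG early bx, CD3E stood at 1.05 and CD3D at 1.33 in 1KO.1TG early R versus 3KO.7TG early bx, while with 1KO.1TG early R replicate 2 left out they stood at −0.075 and −0.54.

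CD3G, the gamma chain, was near background. It gave 9, 11 and 4 counts in the 1KO.1TG early R libraries, 10, 14 and 22 counts in the 3KO.7TG late R libraries and 4, 5 and 13 counts in the 3KO.7TG early bx libraries. It exceeded the highest viral probe of its library in 3 of 9 libraries. Differences of CD3G were not detectable with these counts.

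CD247, the zeta chain, did not follow CD3E. It gave 81.5, 57.9 and 255 CPM in the 1KO.1TG early R libraries, the last from 15 counts of the low-yield library, 70.6, 84.5 and 122 CPM in the 3KO.7TG late R libraries and 122, 124 and 99.7 CPM in the 3KO.7TG early bx libraries. Its lowest level was in replicate 2 of 1KO.1TG early R, a library high in CD3D and CD3E. Counts of CD3E over those of CD247 were 2.25, 6.97 and 1.13 in the 1KO.1TG early R libraries, 3.10, 4.23 and 4.51 in the 3KO.7TG late R libraries and 1.04, 1.20 and 5.95 in the 3KO.7TG early bx libraries.

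The log2 fold change of CD247 in 1KO.1TG early R versus 3KO.7TG early bx was −0.58 ± 0.46 (limma adjusted p = 0.675). With the low-yield library left out it was −0.66 ± 0.43 (limma adjusted p = 0.456), and both 1KO.1TG early R libraries then lay below all 3 of 3KO.7TG early bx. Of all probes 14.7% did the same in the lower direction. The log2 ratio of CD247 to CD3E averaged −1.38 ± 1.32 in the 1KO.1TG early R libraries, −1.96 ± 0.29 in the 3KO.7TG late R libraries and −0.96 ± 1.40 in the 3KO.7TG early bx libraries (SD, n = 3), and no difference passed (exact two-sided permutation p of 0.4 to 0.6, adjusted p = 0.8 over 12 ratio tests; 3 against 3 cannot go below 0.1). Without the low-yield library the 1KO.1TG early R mean was −1.98 ± 1.15 (SD, n = 2), close to that of 3KO.7TG late R.

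CD4, the coreceptor for MHC class II, had the highest counts of the 10 probes outside the low-yield library. It gave 1046, 1915 and 204 CPM in the 1KO.1TG early R libraries, 1191, 1703 and 1317 CPM in the 3KO.7TG late R libraries and 807, 823 and 1090 CPM in the 3KO.7TG early bx libraries. The 204 CPM rest on 12 counts in the low-yield library, below its highest viral probe. All 3 libraries of 3KO.7TG late R lay above all 3 of 3KO.7TG early bx. Of the 10 genes 2, CD4 and CD8B, were separated in this way and both were higher, where 6.39% of all probes were (10.2% in either direction). For 1KO.1TG early R 0 of 10 genes had groups without overlap, where 13.8% of all probes did against 3KO.7TG early bx and 11.1% against 3KO.7TG late R.

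The log2 fold change of CD4 in 3KO.7TG late R versus 3KO.7TG early bx was 0.63 ± 0.70 (limma adjusted p = 0.990), or 0.65 ± 0.36 with the low-yield library left out (limma adjusted p = 0.911). For 1KO.1TG early R versus 3KO.7TG early bx it was −0.21 ± 0.68 (limma adjusted p = 0.990), or 0.72 ± 0.40 without that library (limma adjusted p = 0.372). Between 1KO.1TG early R and 3KO.7TG late R it was −0.84 ± 0.72 (limma adjusted p = 0.852), or 0.072 ± 0.40 without it (limma adjusted p = 0.978). The direction of CD4 in both comparisons with 1KO.1TG early R thus changed when 1 library was left out.

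Macrophages carry CD4 as well, so their markers are given beside it. The 19 measured monocyte and macrophage markers summed to 21049, 32728 and 4840 CPM in the 1KO.1TG early R libraries, 16067, 30222 and 22207 CPM in the 3KO.7TG late R libraries and 13394, 11894 and 19661 CPM in the 3KO.7TG early bx libraries. In 3KO.7TG late R versus 3KO.7TG early bx 18 of the 19 lay above 0 (median log2 fold change 0.58, against −0.016 over all probes), and 0 passed (limma; also 0 at an unadjusted p under 0.05). In 1KO.1TG early R versus 3KO.7TG early bx 9 of 19 lay above 0 (median −0.028, 0 passed and 4 had an unadjusted p under 0.05, limma), where 13.2% of all probes had such a p. Without the low-yield library 17 of 19 lay above 0 (median 0.77) and 7 had an unadjusted p under 0.05, where 20.1% of all probes did. Over all libraries LILRB2 and TREM1, inhibitory and activating myeloid receptors, were nearest in 1KO.1TG early R versus 3KO.7TG early bx. They stood at 1.73 ± 0.49 and 2.85 ± 0.81 on the log2 scale (limma adjusted p = 0.181 for each). In 3KO.7TG late R versus 3KO.7TG early bx they stood at 0.85 ± 0.45 and 1.30 ± 0.74 (limma adjusted p = 0.990). Without the low-yield library, thus with 2 libraries against 3, LILRB2 was higher in 1KO.1TG early R than in 3KO.7TG early bx (2.12 ± 0.41, limma adjusted p = 0.032). It was the 1 marker of the 19 that passed in this fit, where 1.83% of all probes did. Between 1KO.1TG early R and 3KO.7TG late R the nearest were LILRB4 and TREM1 (2.02 ± 0.86 and 1.55 ± 0.70, limma adjusted p = 0.727 for each). Defining markers were well above background in the other 8 libraries, with 551 to 7055 counts for CD14 and 330 to 2379 for CD68. The part of these cells in the CD4 signal was not tested.

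The 3 probes that followed CD4 most closely over the 8 other libraries, out of 617, were HAVCR2, IFNAR2 and FCGR1A. HAVCR2 encodes the inhibitory receptor TIM-3 of T cells and myeloid cells, IFNAR2 a chain of the type I interferon receptor and FCGR1A the high-affinity IgG receptor of monocytes and macrophages. Likeness was measured as the SD over libraries of the difference in log2 CPM, which was 0.15, 0.16 and 0.19 for them, against a median of 0.72 over all 617. None of the other 9 genes was among these 3. For a gene that varies little, this SD is also low with probes that vary little without following it.

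CD8A, the alpha chain of CD8, varied least of the 10. It gave 111, 74.8 and 102 CPM in the 1KO.1TG early R libraries, 77.6, 58.7 and 93.4 CPM in the 3KO.7TG late R libraries and 88.0, 59.7 and 86.4 CPM in the 3KO.7TG early bx libraries. The 102 CPM rest on 6 counts in the low-yield library, below its highest viral probe. The highest and lowest CD8A levels of the other 8 libraries were 1.89-fold apart, and 6.13% of all probes varied less over these libraries. The log2 fold changes were 0.23 ± 0.45 in 1KO.1TG early R versus 3KO.7TG early bx, −0.073 ± 0.43 in 3KO.7TG late R versus 3KO.7TG early bx and 0.30 ± 0.43 in 1KO.1TG early R versus 3KO.7TG late R (limma adjusted p = 0.920, 0.990 and 0.876).

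The probes closest to CD8A were TYK2 (a Janus kinase), IRF1 (an interferon-induced transcription factor) and PTPN6 (a phosphatase that dampens receptor signalling), with SDs of difference of 0.17, 0.24 and 0.28. A probe of constant level would score 0.31, the SD of CD8A itself over the 8 libraries. PTPN6 is thus hardly shown to follow CD8A. For CD3E the closest probes were CD3D (0.27), CASP4, an inflammatory caspase (0.32), and LGALS3, the lectin galectin-3 (0.34), against a median of 0.98. CD3D was thus nearer to CD3E than any other probe, and CD3E was in turn the nearest to CD3D. Among probes chosen after their values were seen, ICOS, a costimulatory receptor of activated T cells, was the next nearest to CD3D (0.35), and KLRK1, the NKG2D receptor of natural killer and CD8 T cells, the nearest to CD247 (0.14).

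**Figure D3:**
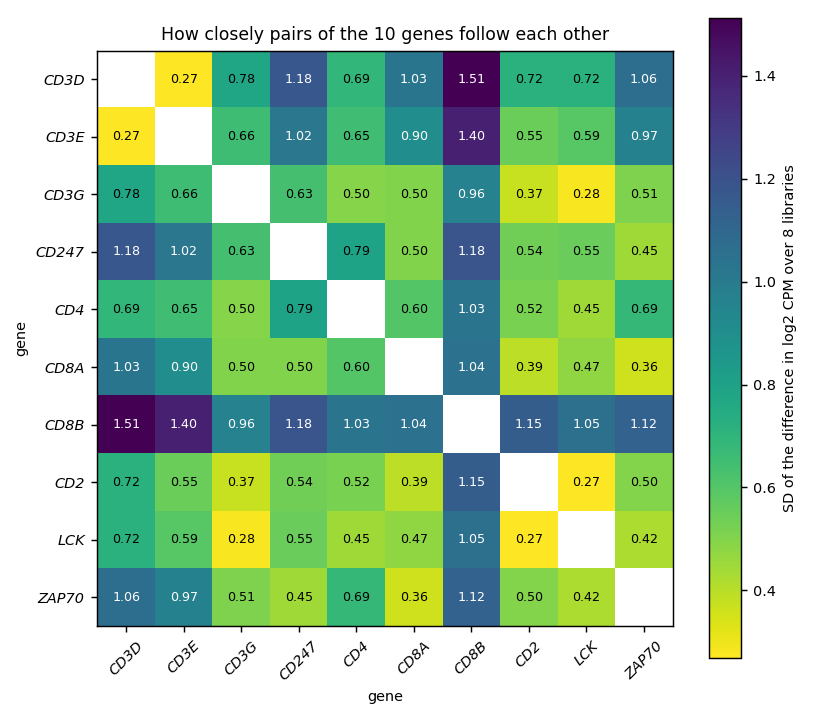
The SD of the difference in log2 CPM over the 8 libraries of ordinary yield, for every pair of the 10 genes on both axes. Lower values mark genes that follow each other or that both vary little. CD3D and CD3E (0.27) and CD2 and LCK (0.27) are the closest pairs of the 10, though CGAS (0.17) is nearer to CD2 and IL16 (0.20) to LCK. CD3E and CD247 (1.02) and CD3D and CD8A (1.03) lie near the medians over 617 probes, 0.98 for CD3E and 1.06 for CD3D. CD3G and CD8B include values near background.

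CD8B, the beta chain that marks the CD8 alpha-beta form found on cytotoxic T cells, had few counts. It gave 18, 5 and 3 counts in the 1KO.1TG early R libraries, 13, 23 and 20 counts in the 3KO.7TG late R libraries and 3, 3 and 3 counts in the 3KO.7TG early bx libraries. All 3 libraries of 3KO.7TG late R exceeded their highest viral probe (12, 16 and 17 counts), and none of 3KO.7TG early bx did (13, 7 and 12 counts). Replicate 1 of 1KO.1TG early R was the remaining library above it (18 against 13 counts).

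In 3KO.7TG late R versus 3KO.7TG early bx the log2 fold change of CD8B was 1.88 ± 1.00 (limma unadjusted p = 0.0835, adjusted p = 0.990). Leaving out the low-yield library gave 1.91 ± 0.59, rank 6 of 767 probes by unadjusted p (limma, adjusted p = 0.911). Over all alternatives its adjusted p ran from 0.570 to 1.00. The summed 56 against 9 counts gave a ratio of 4.23 per scaled library size (exact 95% interval 2.08 to 9.73, which covers counting error only).

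The 3 counts in each 3KO.7TG early bx library were below the mean of its viral probes (7.25, 5 and 7.25 counts), so the fold changes and ratios of CD8B against that group compare with background and not with a measured level. Set against CD8A in the same library, which removes the scaling, CD8B was 0.163 to 0.258 of CD8A counts in the 3KO.7TG late R libraries and 0.0309 to 0.0833 in the 3KO.7TG early bx libraries. The difference in mean log2 ratio was 2.09 (exact two-sided permutation p = 0.1, the smallest that 3 against 3 allows, adjusted p = 0.6). With CD8B set to the highest viral probe wherever it was not above it, the ratio in 3KO.7TG early bx could be as high as 0.124 to 0.217, which overlaps with 3KO.7TG late R. In the 1KO.1TG early R libraries the ratio was 0.155 and 0.0595, leaving out the low-yield library, the first lying between the other groups and the second within the 3KO.7TG early bx range.

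The balance of coreceptors was read as CD8A over CD4 within a library. It was 0.106 and 0.0391 in the 1KO.1TG early R libraries without the low-yield library, 0.0345 to 0.0709 in the 3KO.7TG late R libraries and 0.0726 to 0.109 in the 3KO.7TG early bx libraries. Every 3KO.7TG late R library thus lay below every 3KO.7TG early bx library, with a difference in mean log2 ratio of −0.66 (exact two-sided permutation p = 0.1, the smallest possible, adjusted p = 0.6). The difference in 1KO.1TG early R versus 3KO.7TG early bx was 0.58 over all libraries and −0.41 without the low-yield one (exact permutation p = 0.8 over all). The macrophage markers given with CD4 apply to this ratio as well.

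CD2, an adhesion receptor that binds CD58 on the antigen-presenting cell, gave 54, 58 and 9 counts in the 1KO.1TG early R libraries, 31, 75 and 111 counts in the 3KO.7TG late R libraries and 29, 23 and 91 counts in the 3KO.7TG early bx libraries. The groups overlapped after scaling in all comparisons. Its log2 fold changes were 0.043 ± 0.55, 0.094 ± 0.53 and −0.052 ± 0.51 in 1KO.1TG early R versus 3KO.7TG early bx, 3KO.7TG late R versus 3KO.7TG early bx and 1KO.1TG early R versus 3KO.7TG late R.

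The kinases varied less than the CD3 chains. LCK gave 209, 231 and 102 CPM in the 1KO.1TG early R libraries, 191, 212 and 346 CPM in the 3KO.7TG late R libraries and 133, 212 and 255 CPM in the 3KO.7TG early bx libraries. ZAP70 gave 131, 114 and 153 CPM in the 1KO.1TG early R libraries, 98.8, 66.7 and 153 CPM in the 3KO.7TG late R libraries and 104, 141 and 102 CPM in the 3KO.7TG early bx libraries. The low-yield library, last of 1KO.1TG early R, held 6 counts of LCK and 9 of ZAP70, both below its highest viral probe. For neither kinase were the groups apart. In the 3KO.7TG late R libraries the highest and lowest ZAP70 levels of the 8 libraries stood side by side, in replicates 3 and 2.

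In the order used for CD2, LCK had log2 fold changes of 0.091 ± 0.45, 0.30 ± 0.42 and −0.21 ± 0.46, and ZAP70 of 0.14 ± 0.45, −0.18 ± 0.42 and 0.32 ± 0.44. The adjusted p were 0.990, 0.990 and 0.927 for LCK and 0.987, 0.990 and 0.876 for ZAP70 (limma). The log2 ratio of LCK to CD3E averaged −0.71 ± 0.85 in the 1KO.1TG early R libraries, −0.54 ± 0.30 in the 3KO.7TG late R libraries and −0.21 ± 0.90 in the 3KO.7TG early bx libraries (SD, n = 3), without a difference beyond the spread (exact two-sided permutation p of 0.6 to 0.8, adjusted p = 0.8). Without the low-yield library the 1KO.1TG early R mean was −0.31 ± 0.71 (SD, n = 2), above and no longer below that of 3KO.7TG late R.

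In 1KO.1TG early R versus 3KO.7TG early bx 8 lay above 0, with a median of 0.19 on the log2 scale against −0.071 over all probes. In 3KO.7TG late R versus 3KO.7TG early bx 7 lay above 0, with a median of 0.41 against −0.016. In 1KO.1TG early R versus 3KO.7TG late R 3 lay above 0, with a median of −0.22 against −0.058. The first of these medians changed sign with the scaling, to −0.23 with macaque reference probes, −0.034 with median scaling and −0.64 unscaled. The third did so with pig reference probes (0.31), a pseudocount of 5 without weights (0.45), the replicate block (0.053), and on leaving out 1KO.1TG early R replicate 1 or 2 (0.067 and 0.083) or 3KO.7TG late R replicate 3 (0.086). That of 3KO.7TG late R versus 3KO.7TG early bx stayed above 0 in the alternatives run.

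The levels were also set beside the macaque relative to pig reference signal, with which CD3D, CD3E and CD4 had the highest correlations of the 10 genes. For 4 reference genes the panel carries a macaque-marked and a pig-marked probe, and their mean log2 ratio, macaque over pig, served as an index. It was −2.16, −0.56 and −2.54 in the 1KO.1TG early R libraries, −2.91, −1.45 and −1.61 in the 3KO.7TG late R libraries and −3.62, −3.11 and −1.34 in the 3KO.7TG early bx libraries. How specific these probes are to their species was not checked.

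With the low-yield library left out, CD3D had over 8 libraries a Pearson r = 0.90 with the index (exact permutation p = 0.0045, adjusted p = 0.041 over the 759 probes outside the index) and Spearman rho = 0.90 (exact permutation p = 0.0046, adjusted p = 0.064). For CD3E r was 0.85 (exact permutation p = 0.011, adjusted p = 0.059) and rho was 0.86 (exact permutation p = 0.011, adjusted p = 0.086). For CD4 r was 0.85 (exact permutation p = 0.0093, adjusted p = 0.052) and rho was 0.81 (exact permutation p = 0.022, adjusted p = 0.109). By Pearson r 1 of the 10 genes (CD3D) thus passed, where 16.5% of all probes did, and 3 of 10 had an unadjusted exact permutation p under 0.05, where 37.5% did. By rank 0 of 10 passed and 3 had an unadjusted exact permutation p under 0.05, against 4.74% and 30.7% of all probes. These shares lie near or below those of the 759 probes, of which 2.77% had an r as high as that of CD3D. CD8A, CD8B and ZAP70 had r of −0.018, −0.090 and −0.14, CD247 had −0.53, and CD2, LCK and CD3G had 0.60, 0.66 and 0.37, none of which passed (exact permutation adjusted p of 0.157 to 0.973).

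After the 2 libraries with the most extreme index values were dropped, r was 0.81 for CD3D, 0.86 for CD3E and 0.64 for CD4. With each group's mean removed it was 0.95, 0.95 and 0.86. Library size ran with the index too (r = 0.83 for the log2 scaled size), and r was 0.77, 0.57 and 0.60 once size was taken out of both. Over all 9 libraries r was 0.90, 0.83 and 0.51. The relations were looked for after the values had been seen, and the part of library size in them cannot be separated fully with 8 libraries.

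**Figure D4:**
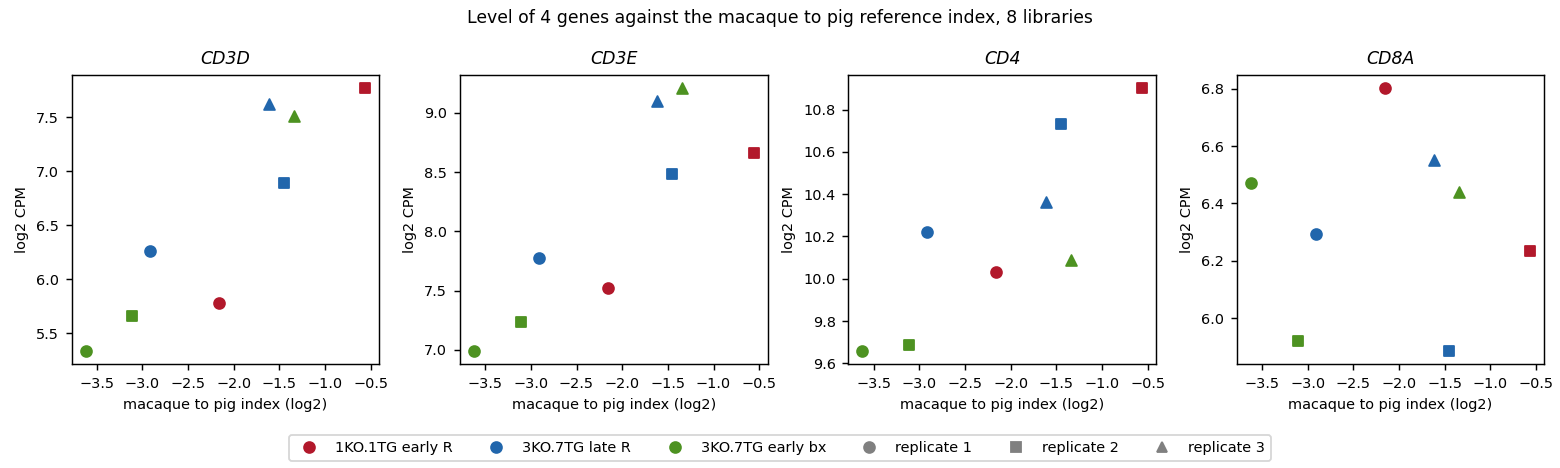
Log2 CPM of CD3D, CD3E, CD4 and CD8A (y axes of differing range) against the log2 macaque to pig reference index (x axis) in 8 libraries, coloured by group with symbols for replicates. The r is 0.90, 0.85 and 0.85 for CD3D, CD3E and CD4 and −0.018 for CD8A; 37.5% of all probes outside the index had an unadjusted exact permutation p under 0.05.

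None of the further receptor signalling genes that were listed passed the test. Of a list of 46 signalling genes written from general knowledge, 22 were measured, and 0 passed in any comparison (limma). At an unadjusted p under 0.05 the counts were 1, 0 and 2 of 22, all lower, in 1KO.1TG early R versus 3KO.7TG early bx, 3KO.7TG late R versus 3KO.7TG early bx and 1KO.1TG early R versus 3KO.7TG late R, where 13.2%, 1.69% and 6.65% of all probes had such a p. Without the low-yield library they were 3, 0 and 3 of 22, again all lower, where 20.1%, 3.52% and 8.87% of all probes had one. The median log2 fold change of the 22 in the first of these comparisons was −0.37 over all libraries and −0.093 without that library. The nearest were NFATC2, a transcription factor activated by calcium after receptor engagement, and TRAT1, a receptor-associated adaptor. NFATC2 stood at −1.10 ± 0.44 and TRAT1 at −0.91 ± 0.48 in 1KO.1TG early R versus 3KO.7TG early bx (limma adjusted p = 0.318 and 0.445). Against 3KO.7TG late R they stood at −1.08 ± 0.45 and −1.10 ± 0.46 (limma adjusted p = 0.727 for each); the 2 comparisons share the 1KO.1TG early R libraries. In 3KO.7TG late R versus 3KO.7TG early bx the nearest were CD28, the main costimulatory receptor (0.92 ± 0.60), and TRDC, the constant region of the delta receptor chain (−0.64 ± 0.43; limma adjusted p = 0.990 for each).

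Of 35 further T cell surface and subset genes, 30 were measured and 0 passed in any comparison (limma), with 1, 0 and 0 at an unadjusted p under 0.05 over all libraries and 2, 0 and 1 without the low-yield one, in the same order and beside the same shares of all probes. LEF1, a factor of naive T cells, was at −1.22 ± 0.62 and −1.09 ± 0.62 in 1KO.1TG early R versus 3KO.7TG early bx and against 3KO.7TG late R (limma adjusted p = 0.434 and 0.804). CD7, a surface glycoprotein, was at −0.82 ± 0.51 in 3KO.7TG late R versus 3KO.7TG early bx (limma adjusted p = 0.990).

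Markers of natural killer and B cells were read beside the genes they share libraries with. The 17 measured natural killer markers summed to 17985, 18290 and 4076 CPM in the 1KO.1TG early R libraries, 11120, 17558 and 14088 CPM in the 3KO.7TG late R libraries and 8710, 9618 and 12330 CPM in the 3KO.7TG early bx libraries. This sum includes FCGR3A/B and FCER1G, which macrophages express too. Of more restricted markers, KLRF1 gave 2 to 14 counts and exceeded the highest viral probe of its library in 2 of 9 libraries, and NCR1 gave 61 to 173 counts outside the low-yield library. None of the 17 passed in any comparison (limma). At an unadjusted p under 0.05 there were 0 in each comparison over all 9 libraries. Without the low-yield library there were 2 higher and 1 lower in 1KO.1TG early R versus 3KO.7TG early bx. There were 0 in 3KO.7TG late R versus 3KO.7TG early bx, and 2 higher between 1KO.1TG early R and 3KO.7TG late R. Of all probes 20.1%, 3.52% and 8.87% had such a p in these comparisons. In the first of these the median log2 fold change of the 17 was −0.17 over all libraries and 0.41 without the low-yield one. KLRK1 (−0.91 ± 0.43) and SH2D1B, a signalling adaptor (−0.62 ± 0.50), were nearest in 1KO.1TG early R over 3KO.7TG early bx (limma adjusted p = 0.394 and 0.675). KLRK1 (−0.47 ± 0.41) and FCGR3A/B (1.23 ± 0.99) were nearest in 3KO.7TG late R versus 3KO.7TG early bx (limma adjusted p = 0.990 for each). Between 1KO.1TG early R and 3KO.7TG late R, NCR1 (0.99 ± 0.51) and FCGR3A/B (−1.88 ± 0.98) were nearest (limma adjusted p = 0.765 for each). The 8 measured B cell markers summed to 144 to 240 CPM in the 8 libraries and 1070 CPM in the low-yield one, where 7 of 8 were at or below its highest viral probe. The part of natural killer cells in CD247, CD2, LCK and ZAP70 was not tested.

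The macaque annotation (RefSeq, T2T-MMU8v2.0) matched all 10 symbols. In it CD3E, CD3D and CD3G are consecutive protein-coding genes, and CD8B is next to CD8A. CD3D and CD3E were the neighbours whose probes followed each other closely. CD3G, near background, had an SD of difference of 0.78 with CD3D and 0.66 with CD3E. CD8A and CD8B had an SD of difference of 1.04, with CD8B near background in most libraries.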

How the data were processed

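The deposited values are log2 values, as a test of the table showed: 2 to the power of each was a whole number within a relative tolerance of 1e-04 for 100% of values. How the authors got from counts to these values is not stated in the sources here; per the labels' protocols RNA had to pass an absorbance ratio. The whole numbers were used as counts, with library totals of 21725 to 1620151. limma 3.58.1 in R 4.3.3 was run as voom (offset 0.5) with library sizes corrected by a trimmed-mean factor each (trims 0.3 and 0.05), with lmFit and eBayes over all 9 libraries, with two-sided p-values corrected across the 767 probes (Benjamini-Hochberg) and a threshold of 0.05. The fit was tested on simulated data. These had the same set spread for every probe and no background counts, so they do not show what could be found for these 10 genes. A fold change is on the log2 CPM scale and understates that of low probes. Ratios were tested by exact permutation. The members and lists were chosen with earlier results of these data known. Named were all 10 genes, the 2 smallest unadjusted p of each further T cell, natural killer and myeloid list, and the 3 probes closest to CD3E, CD4 and CD8A among those with a mean of at least 20 counts. Some genes this rule picks are not reported here. B cell and kidney markers are given as levels only. No sample or probe was left out, and alternatives are given in the closing section.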

Additional observations from a re-analysis of the deposited data

How the results depend on the processing

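No gene of the 10 passed the threshold (limma) under any alternative: 10 settings and 9 left-out libraries gave 564 single-gene values, with a lowest adjusted p of 0.280. Below, the early comparison is 1KO.1TG early R over 3KO.7TG early bx, the late comparison 3KO.7TG late R over 3KO.7TG early bx, and the R comparison 1KO.1TG early R over 3KO.7TG late R. The pig reference scaling was chosen after seeing the data. The scaling moved all probes together: their median stood between −0.77 (unscaled) and 0.82 (pig reference probes) in the early comparison, −0.27 and 0.55 in the late one, and −1.40 and 0.38 in the R comparison. The median log2 fold change of the 10 genes moved beyond the within-group spread of 0.33 to −0.23 (macaque reference probes), −0.64 (unscaled) and 1.11 (pig reference probes) in the early comparison, to 1.01 (unscaled) and 0.88 (pig reference probes) in the late one, and to −1.35 (unscaled), 0.45 (pseudocount of 5 without weights) and 0.31 (pig reference probes) in the R comparison. Directions of single log2 fold changes turned as follows, for values none of which passed; causes were not tested. With median scaling the early comparison gave CD2 −0.21, LCK −0.13 and ZAP70 −0.076, while the late comparison gave CD2 −0.048, and the R comparison gave CD3G −0.075. With scaling on 4 housekeeping genes the early comparison gave CD4 0.45, while the late comparison gave CD8A 0.033. With macaque reference probes the early comparison gave CD3D −0.16, CD3E −0.20, CD8A −0.20, CD2 −0.49, LCK −0.34 and ZAP70 −0.25, while the late comparison gave CD2 −0.23, and the R comparison gave CD3G −0.10. On the values as deposited, unscaled, the early comparison gave CD3D −0.66, CD3E −0.60, CD8A −0.61, CD2 −0.37, LCK −1.10 and ZAP70 −0.71, while the late comparison gave CD247 0.18, CD8A 0.51 and ZAP70 0.35, and the R comparison gave CD3G −0.99, CD8A −1.12 and ZAP70 −1.06. With a pseudocount of 5 and no weights the early comparison gave CD247 0.011, while the R comparison gave CD247 0.37, CD8B 0.53 and CD2 0.56. With the viral probe mean subtracted the early comparison gave CD4 0.059 and LCK −0.016, while the R comparison gave CD3G −0.062. With the replicate number as a block (replicate block) the R comparison gave CD3D 0.21 and CD2 0.26. With pig reference probes the early comparison gave CD247 0.48 and CD4 0.47, while the late comparison gave CD247 0.080, CD8A 0.41 and ZAP70 0.24, and the R comparison gave CD3E 0.068, CD247 0.40, CD8B 0.22 and CD2 0.56. With only the 6 libraries compared the R comparison gave CD3G −0.021.

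Whether replicate numbers pair the libraries cannot be decided from 3 libraries a group. Of same-numbered pairs 3 of 9 correlated above 0.1 (range −0.45 to 0.48), and 3 of 9 libraries correlated best with their own number. Most same-numbered pairs join different donor lines. Within the 3KO.7TG line the same-numbered pairs correlated at 0.28, −0.34 and 0.48. The replicate block called 0 of the 10 genes in each comparison (limma). When single libraries were left out, directions turned within these ranges of log2 values. The early comparison ranges were CD2 −0.11 to 0.49, CD247 to CD3E ratio −1.23 to 0.29, CD3D −0.54 to 1.33, CD3E −0.075 to 1.05, CD4 −0.64 to 0.72, CD8A to CD4 ratio −0.41 to 1.43 and LCK −0.10 to 0.37. The late comparison ranges were CD2 −0.15 to 0.56, CD8A −0.21 to 0.14, LCK to CD3E ratio −0.83 to 0.030 and ZAP70 −0.47 to 0.13. The R comparison ranges were CD2 −0.23 to 0.23, CD247 −0.39 to 0.11, CD247 to CD3E ratio −0.022 to 1.29, CD3D −1.14 to 0.54, CD3E −0.72 to 0.11, CD3G −0.42 to 0.21, CD4 −1.27 to 0.072, CD8B −0.83 to 0.49, CD8B to CD8A ratio −1.16 to 0.37, LCK −0.35 to 0.047 and LCK to CD3E ratio −0.62 to 0.23. Over all probes the calls numbered 3, 0 and 3 in the early, late and R comparisons, and 2 to 14, 0 and 2 to 10 over the alternatives. The filter at a mean of 20 counts removed CD3G and CD8B. CD3G and CD8B lay above the highest viral probe in 3 and 4 of 9 libraries, and 2 of the 10 genes did in the low-yield library, which limits what these values can show; why the counts are low was not tested.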
